A study of Rattus norvegicus with 24 samples.

Results

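The aldosterone axis and the epithelial sodium channel were followed through 7 genes in the distal colon of Pirc rats: the channel subunits Scnn1a, Scnn1b and Scnn1g, the mineralocorticoid receptor gene Nr3c2, the enzyme gene Hsd11b2, the kinase gene Sgk1 and the potassium pump gene Atp12a. The genes were chosen by name, and all 7 were found among the 15218 genes that could be named on the array. The animals were male (ACIxF344)F1-Pirc rats aged 97 days, with the genotype Apc-Pirc/+, so every rat, control or treated, carried a mutant copy of the tumour suppressor gene Apc. Of the 10 rats, 5 received 4% dextran sodium sulfate (DSS, molecular weight 500000), a polymer that damages the colonic lining, in drinking water over days 40 to 47 and again over days 54 to 61 of age. No DSS was given to the remaining 5. Normal colon and colonic tumour were taken from each rat, which gave 4 groups of 5 rats: normal colon and tumours of untreated rats (rats 2, 3, 4, 8 and 10) and of DSS rats (rats 1, 5, 6, 7 and 9). The germline mutation is present in all tissues of these rats, and the labels do not say how many tumours made up a sample. Values are log2 ratios of the sample (Cy3) over a pool of colon RNA from Apc wild-type rats (Cy5), so that 0 is the level of the pool and -1 is a level 2-fold lower.

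Aldosterone is the adrenal hormone that makes the kidney and the distal colon retain sodium and excrete potassium. It acts through the mineralocorticoid receptor, which Nr3c2 encodes and which cortisol or corticosterone can also occupy. The enzyme encoded by Hsd11b2 inactivates those glucocorticoids in aldosterone target cells and thereby keeps the receptor selective. Sgk1 encodes a kinase that the receptor induces and that slows the removal of the epithelial sodium channel (ENaC) from the cell surface. ENaC is built from the alpha, beta and gamma subunits encoded by Scnn1a, Scnn1b and Scnn1g, and lets sodium enter the surface cells of the distal colon. Atp12a encodes the catalytic subunit of the colonic proton-potassium pump, which takes up potassium from the lumen.

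All 24 arrays (4 samples had a second array) carried signal for these genes: the probe that stood for each of the 7 genes was well above background on all 24 arrays in both channels. Between 47.6% and 70.5% of all probes were well above background on 21 arrays. The share reached 86.9% to 95.2% on 3 arrays, which held the normal colon of rats 2 (its first array) and 4 and the tumour of rat 9, and results are also given without these. Lot 1 of the slides held rats 1 to 6, and lot 2, which was also the whole of scan day 3, held rats 7 to 10, so each group had 3 rats in lot 1 and 2 in lot 2. Scan days were not balanced over tissue in lot 1. The untreated tumours of rats 2 and 3 were scanned on day 2, and their normal colons on day 1 and again on day 2. The labelled tissue carried its markers: the 10 genes of a colonocyte and simple epithelium list, among them Cdx2, Lgals4 and Vil1, were well above background on every array.

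The subunit genes of the channel and the genes of the kinase and the pump were lower together in tumours, so the start of these genes is shown. RefSeq promoters (build GRCr8) were matched by symbol for 4 of the 7 genes, with 7 start sites in all: Scnn1b, Scnn1g, Sgk1 (3 start sites) and Atp12a (2). Scnn1a, Nr3c2 and Hsd11b2 had no entry. The 250 bases before the most upstream listed start site are printed 5′ to 3′ on the strand of the gene, and capitals mark the letters TATAAA.
Scnn1b (chr1:185861126-185861375, + strand): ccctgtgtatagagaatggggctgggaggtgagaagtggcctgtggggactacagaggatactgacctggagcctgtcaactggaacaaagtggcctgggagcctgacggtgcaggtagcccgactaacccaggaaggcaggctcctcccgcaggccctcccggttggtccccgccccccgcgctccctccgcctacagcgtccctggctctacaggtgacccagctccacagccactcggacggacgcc
Scnn1g (chr1:185735975-185736224, + strand): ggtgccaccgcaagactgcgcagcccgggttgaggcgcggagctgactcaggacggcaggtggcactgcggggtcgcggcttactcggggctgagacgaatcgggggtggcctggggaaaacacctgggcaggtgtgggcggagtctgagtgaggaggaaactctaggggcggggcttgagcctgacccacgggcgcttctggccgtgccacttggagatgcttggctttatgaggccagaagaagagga
Sgk1 (chr1:24807232-24807481, - strand): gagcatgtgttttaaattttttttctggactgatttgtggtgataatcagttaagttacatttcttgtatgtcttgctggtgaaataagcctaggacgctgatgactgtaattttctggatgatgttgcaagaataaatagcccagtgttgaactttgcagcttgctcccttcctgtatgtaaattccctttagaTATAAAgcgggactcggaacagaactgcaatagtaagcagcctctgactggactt
Atp12a (chr15:34558959-34559208, + strand): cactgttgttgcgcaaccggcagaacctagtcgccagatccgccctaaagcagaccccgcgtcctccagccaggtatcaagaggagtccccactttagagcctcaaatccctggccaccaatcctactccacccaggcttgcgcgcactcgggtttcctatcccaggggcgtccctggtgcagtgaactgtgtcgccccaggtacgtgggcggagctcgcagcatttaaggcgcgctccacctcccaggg
The letters of 3 motifs were searched on both strands of the 300 bases around each start site. The half-site of the corticosteroid receptors, AGAACA, matched at 1 of the 7 start sites, the second of Atp12a, at position -18 on the minus strand, and 20.7% of 33469 RefSeq promoters of the same length hold it. The full site GNACANNNTGTNC, whose first letters overlap those of the half-site, matched at none of the 7 and in 0.439% of all promoters. TATAAA matched at 2 start sites of Sgk1, at positions -55 and -33, and in 14.2% of all promoters. Scnn1g and Scnn1b lie next to each other on the same chromosome with 0 annotated genes between them.

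In untreated rats all 7 genes fell in tumours, from 2.15-fold for Scnn1a to 10.8-fold for Sgk1. In DSS rats 5 of the 7 fell, and Scnn1a and Hsd11b2 did not pass the test. In normal colon Nr3c2 and Hsd11b2 fell with DSS, and in tumours none of the 7 was called for DSS. For Hsd11b2 the DSS effect differed between the tissues by the test of that difference itself. Calls are adjusted p under 0.05 from limma over all 26843 features, with 5 rats per group. The lower calls among all features were 9.41% for tumours against normal colon in untreated rats, 3.82% for the same comparison in DSS rats and 3.32% for DSS against untreated normal colon. In tumours 0% of features were called for DSS. The median change of the 7 genes was -2.28 in untreated tumours and -1.94 in DSS tumours, each against normal colon, beside medians of -0.002 and 0.02 over all features. Where each array was centred on its median in place of loess, 6 of the 7 genes passed in untreated rats, 0 in DSS rats and 0 for DSS in normal colon.

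**Figure D1:**
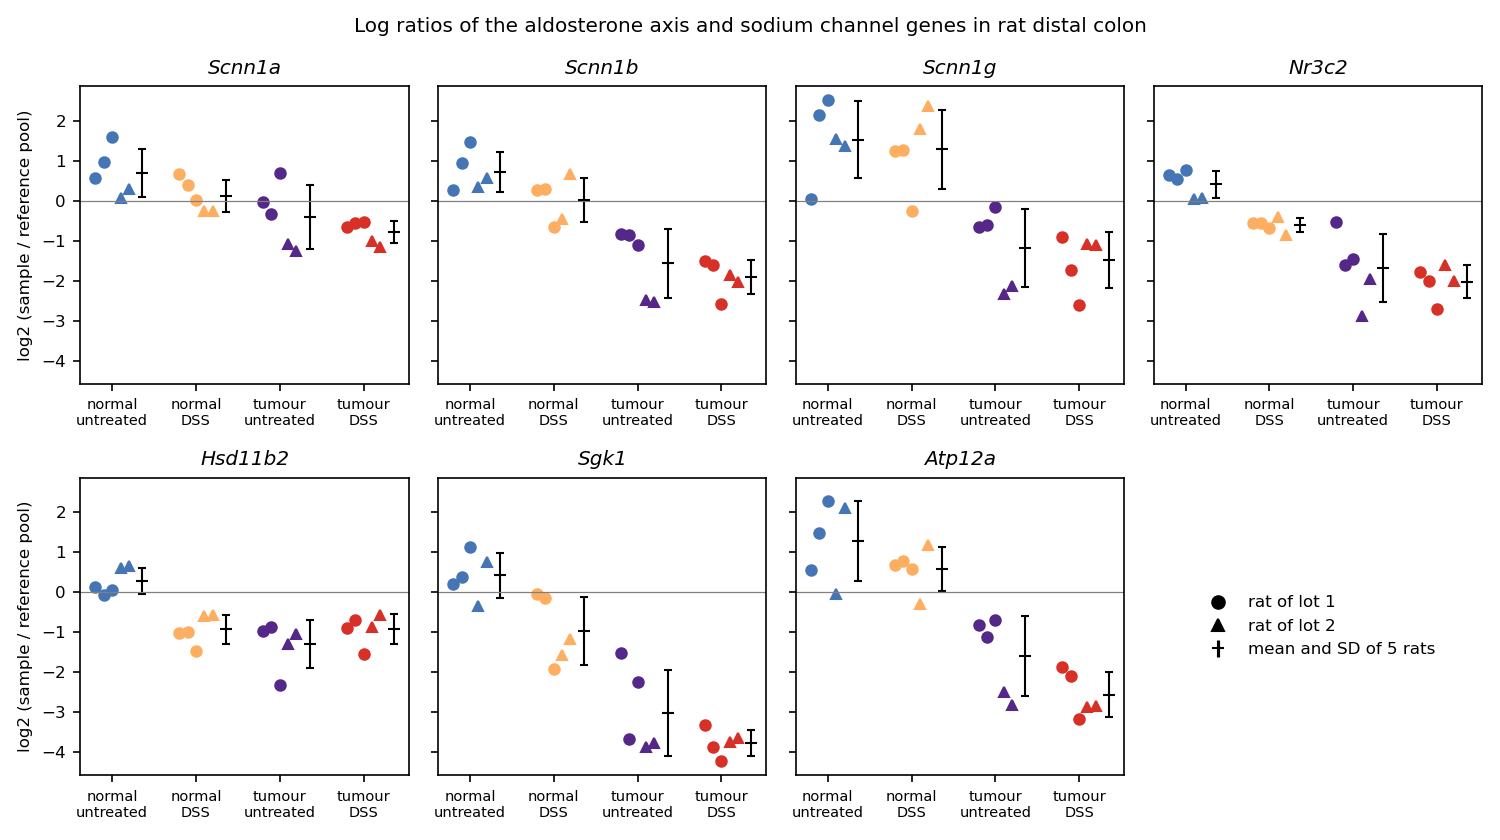
Log2 ratio of the sample over the reference pool (vertical axis) for each of the 7 genes in the 4 groups. Circles are rats of lot 1, triangles are rats of lot 2, and bars give the mean and SD of 5 rats. For each gene but Scnn1a the 5 untreated normal colons all lie above the 10 tumours, while Scnn1a of untreated rats overlaps between the tissues. The share of all features that separate these groups was not counted.

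**Figure D2:**
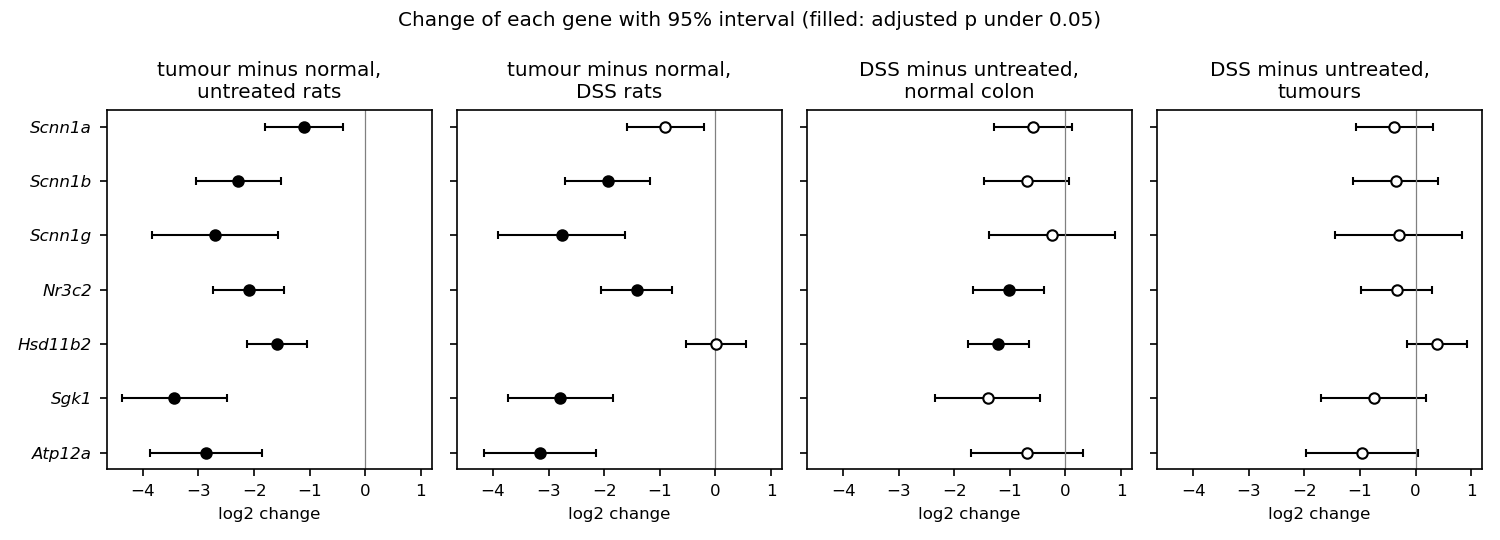
Log2 change (horizontal axis) of each gene in 4 comparisons, with the 95% interval from limma. Filled points had an adjusted p under 0.05: all 7 in untreated tumours, 5 in DSS tumours, 2 for DSS in normal colon and none for DSS in tumours.

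Among the channel subunits the estimated falls in untreated tumours were -2.28 for beta, -2.70 for gamma and -1.10 for alpha on the log2 scale, and the differences between subunits were not tested. Scnn1b, the beta subunit, stood in untreated normal colon at 0.26, 0.95, 1.47, 0.34 and 0.57 (rats in the order given above), and in untreated tumours at -0.84, -0.85, -1.12, -2.48 and -2.52. In DSS rats it was at 0.26, 0.29, -0.67, -0.46 and 0.67 in normal colon and at -1.51, -1.60, -2.58, -1.87 and -2.04 in tumours. Tumours and normal colon did not overlap under either treatment, and the tumours of the untreated rats of lot 2 were lower than those of lot 1. The tumours of untreated rats were also lower in lot 2 than in lot 1 for Scnn1a, Scnn1g, Nr3c2, Sgk1 and Atp12a. For Hsd11b2 the mean of untreated tumours was -1.17 in lot 2 and -1.39 in lot 1. The reference channel of its probe was saturated on every array of lot 2, which can overstate the lot 2 values. The log2 change of Scnn1b in tumours was -2.28 ± 0.36 (SE; 4.86-fold lower, adjusted p = 0.000322, limma) in untreated rats and -1.94 ± 0.36 (3.83-fold lower, adjusted p = 0.00252) in DSS rats.

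Scnn1g, the gamma subunit, varied widely between normal colons (SD 0.96 in untreated and 0.98 in DSS rats, n = 5 each). Its values in untreated normal colon were 0.03, 2.15, 2.53, 1.54 and 1.35, and in DSS normal colon 1.23, 1.27, -0.27, 1.80 and 2.37. Rat 2 and rat 6 were the low rats of their groups, and both arrays of each agreed on this (0.24 and -0.18 for rat 2, -0.37 and -0.17 for rat 6). In untreated tumours Scnn1g was at -0.67, -0.62, -0.16, -2.33 and -2.12, and in DSS tumours at -0.91, -1.73, -2.62, -1.07 and -1.11. Every tumour value was below every normal colon value of the same treatment. The change in tumours was -2.70 ± 0.54 (6.51-fold lower, adjusted p = 0.00198) in untreated and -2.77 ± 0.54 (6.81-fold lower, adjusted p = 0.00351) in DSS rats. Within lot 1 alone the untreated change of Scnn1g was -2.05 with an adjusted p of 0.0688.

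Scnn1a, the alpha subunit, which ENaC needs to form a conducting channel, had the smallest estimated change in untreated tumours. It stood at 0.56, 0.96, 1.59, 0.07 and 0.28 in untreated normal colon and at -0.04, -0.34, 0.68, -1.07 and -1.27 in untreated tumours. The tissues overlapped between rats, with rat 4 high and rats 8 and 10 low in both, and the tumour was lower in each of the 5 rats, by 0.60 to 1.55 on the log2 scale. DSS normal colon was at 0.66, 0.38, 0.01, -0.25 and -0.25, and DSS tumours at -0.67, -0.56, -0.54, -1.01 and -1.15. The change was -1.10 ± 0.33 (2.15-fold lower, adjusted p = 0.0265) in untreated rats and -0.90 ± 0.33 (95% interval -1.59 to -0.20, adjusted p = 0.119) in DSS rats. With rat as a block, which compares the tissues within each rat, the change of Scnn1a in DSS rats had an adjusted p of 0.00235 and 6 of the 7 genes passed. The untreated call of Scnn1a ended without the 3 arrays of raised signal (-0.84, adjusted p = 0.0921), within lot 1 (-0.94, adjusted p = 0.0632), without rat 3 (-1.05, adjusted p = 0.0903), rat 8 (-1.09, adjusted p = 0.0589) or rat 10 (-0.99, adjusted p = 0.0697), and when only the 2 groups compared were fitted (adjusted p = 0.0958). It also ended with median centring in place of loess, where the adjusted p by limma was 0.474.

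The array held a second probe for Scnn1a, which gave smaller differences than the one above. The first 30 bases of both 60-base probes, and of the 2 probes of Nr3c2, are given so that they can be told apart, and no part of them is in capitals.
Scnn1a A_43_P12580: taagacagaccagggtaggcctggtgttct
Scnn1a A_44_P1070856: ctccttggacagcctgggctgtctctccaa
Nr3c2 A_43_P15261: aggtggagaaggtctacattagtctttttg
Nr3c2 A_44_P158441: cggccatgatcctggagaacatcgagcctg
The probe A_43_P12580, which stood for Scnn1a, had 10 spots per array with a median SD of 0.09 between spots, and a mean log2 intensity of 10.9. The second probe A_44_P1070856 had 1 spot and a mean log2 intensity of 7.77, and its change in untreated tumours was -0.34 ± 0.30 (adjusted p = 0.526). The second probe of Nr3c2, A_44_P158441, was well above background on 18 of 24 arrays, only 3 of 5 in untreated tumours and 2 of 6 in DSS tumours, and changed by -0.25 ± 0.07 (adjusted p = 0.0158) in untreated tumours. In untreated tumours the second probe of Nr3c2 was called by limma in the direction of the brighter probe. It was not called in DSS tumours (-0.14 ± 0.07, adjusted p = 0.266) or for DSS in normal colon (-0.16 ± 0.07, adjusted p = 0.193), where the brighter probe was. The second probe of Scnn1a, which was well above background on all 24 arrays, did not pass the threshold in any of these comparisons.

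Nr3c2, the mineralocorticoid receptor, had a lower mean in each tumour group than in either normal group. In untreated normal colon it stood at 0.63, 0.54, 0.76, 0.04 and 0.08, and in DSS normal colon at -0.57, -0.56, -0.68, -0.40 and -0.85. The 2 groups of normal colon did not overlap, and the DSS rats varied little (SD 0.17). In tumours Nr3c2 was at -0.53, -1.61, -1.45, -2.88 and -1.96 in untreated and at -1.79, -2.01, -2.71, -1.61 and -2.01 in DSS rats. Each treatment's tumours lay below its normal colon, with changes of -2.09 ± 0.30 (4.27-fold lower, adjusted p = 0.000144) in untreated and -1.41 ± 0.30 (2.66-fold lower, adjusted p = 0.00674) in DSS rats. DSS against untreated normal colon gave -1.02 ± 0.30 (2.03-fold lower, adjusted p = 0.0492). That call lay at the threshold: without rat 1, 3, 4, 5, 6, 7, 9 or 10 the change was -0.93 to -1.10 with adjusted p from 0.0502 to 0.131, and without the 3 arrays of raised signal it was -0.93 with an adjusted p of 0.134.

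Sgk1, the kinase that the receptor induces, had the largest estimated fall of the 7 genes in untreated tumours. Its values in untreated normal colon were 0.20, 0.37, 1.13, -0.36 and 0.76, and in untreated tumours -1.51, -3.67, -2.25, -3.88 and -3.77. In DSS rats they were -0.05, -0.14, -1.93, -1.58 and -1.17 in normal colon and -3.32, -3.87, -4.24, -3.76 and -3.65 in tumours. All 10 tumours lay below the normal colon of their treatment, and rat 2 had the tumour nearest to normal. The change in tumours was -3.44 ± 0.45 (10.8-fold lower, adjusted p = 6.31e-05) in untreated and -2.79 ± 0.45 (6.93-fold lower, adjusted p = 0.000683) in DSS rats. In normal colon the DSS group was at a mean of -0.97 ± 0.85 (SD) against 0.42 ± 0.57, with rats 1 and 5 inside the untreated range and rats 6, 7 and 9 below it. That difference of -1.40 ± 0.45 did not pass the threshold (adjusted p = 0.0692), and it did with lot as a block (-1.40, adjusted p = 0.0343). The other genes without a call for DSS in normal colon were Scnn1a (-0.58, 95% interval -1.28 to 0.11), Scnn1b (-0.70, -1.46 to 0.06), Scnn1g (-0.24, -1.38 to 0.89) and Atp12a (-0.69, -1.70 to 0.32).

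Atp12a, the colonic proton-potassium pump, fell in tumours under both treatments. It was at 0.56, 1.48, 2.28, -0.05 and 2.09 in untreated normal colon and at -0.82, -1.14, -0.70, -2.51 and -2.83 in untreated tumours. DSS normal colon was at 0.68, 0.78, 0.57, -0.31 and 1.19, and DSS tumours were at -1.86, -2.09, -3.18, -2.87 and -2.84. Tumours and normal colon did not overlap, and the tumour was lower in all 5 rats of each treatment. The changes were -2.87 ± 0.48 (7.31-fold lower, adjusted p = 0.000475) in untreated and -3.15 ± 0.48 (8.88-fold lower, adjusted p = 0.000428) in DSS rats. The sample channel of its probe was saturated on 1 array, rat 4 normal colon, where the value is therefore a lower limit, as is the size of the change in untreated rats.

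Hsd11b2, the enzyme that inactivates glucocorticoids, was high in normal colon of untreated rats and lower in the other 3 groups. In untreated rats it stood at 0.12, -0.06, 0.06, 0.61 and 0.65 in normal colon and at -0.98, -0.86, -2.33, -1.30 and -1.05 in tumours. In DSS rats it stood at -1.02, -0.99, -1.47, -0.60 and -0.57 in normal colon and at -0.90, -0.71, -1.54, -0.87 and -0.56 in tumours. All 5 untreated normal colons lay above all samples of the other 3 groups, which overlapped with each other. The tumour change was -1.58 ± 0.26 (2.99-fold lower, adjusted p = 0.000395) in untreated rats and 0.01 ± 0.26 (95% interval -0.53 to 0.55, adjusted p = 0.986) in DSS rats, where 2 of 5 rats had the lower value in the tumour. DSS against untreated was -1.20 ± 0.26 (2.31-fold lower, adjusted p = 0.00758) in normal colon and 0.39 ± 0.26 (95% interval -0.15 to 0.93, adjusted p = 1) in tumours. The DSS effect in tumours minus that in normal colon was 1.59 ± 0.37 (adjusted p = 0.0246); 1 of the 7 genes was called in this comparison, and 0.834% of all features were called as higher. Of the 7 genes only Hsd11b2 passed it, and the next was Nr3c2 with 0.68 ± 0.43 (adjusted p = 0.496).

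The difference of Hsd11b2 had the same size in both lots, at 1.54 ± 0.49 (adjusted p = 0.172) in lot 1 and 1.67 ± 0.22 (adjusted p = 0.103) in lot 2, although neither lot alone passed the threshold. With lot as a block the adjusted p was 0.00692, and with rat as a block 0.0114. Without the 3 arrays of raised signal the value was 1.59 with an adjusted p of 0.0629, and without rat 1, 5, 8 or 9 it was 1.51 to 1.59 with adjusted p from 0.0528 to 0.0819. The reference channel of the Hsd11b2 probe was saturated on 9 arrays, which were the 8 arrays of lot 2 and rat 1 normal colon, and the sample channel on rat 4 normal colon. All 4 groups of lot 2 shared that saturation, and ratios on those arrays can overstate the level relative to the pool. Saturation on rat 1 normal colon can raise the level of DSS normal colon, and that on rat 4 can lower the level of untreated normal colon, so the 2.99-fold and 2.31-fold changes carry this limit. Without rat 4 the changes were -1.37 (adjusted p = 0.00124) in untreated tumours and -1.26 (adjusted p = 0.0025) for DSS in normal colon, and without rat 1 the latter was -1.18 (adjusted p = 0.0268).

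**Figure D3:**
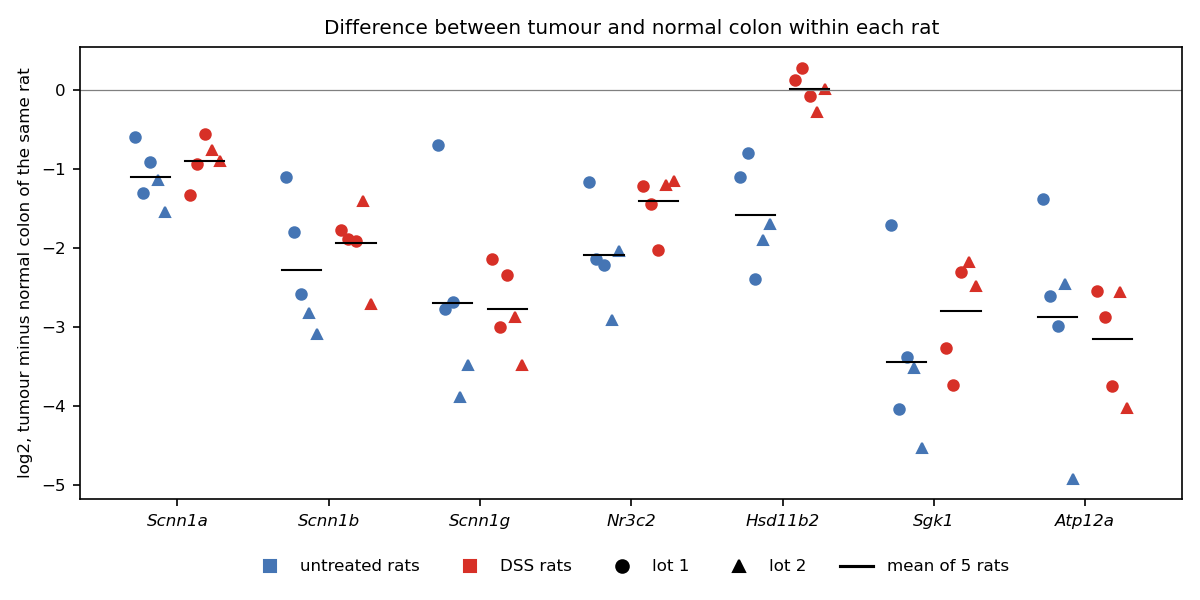
Log2 of the tumour minus log2 of the normal colon of the same rat (vertical axis) for each gene, with untreated rats in blue, DSS rats in red, circles for lot 1, triangles for lot 2 and a line at the mean of 5 rats. Each of the 7 genes was lower in the tumour of all 5 untreated rats, and Hsd11b2 of the DSS rats lies around 0, between -0.28 and 0.28.

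Between DSS and untreated tumours 0 of the 7 genes passed the threshold, as did 0 of all 26843 features by limma, while 1692 features had an unadjusted p under 0.05. The changes of the 7 genes ran from -0.97 ± 0.48 (95% interval -1.98 to 0.04) for Atp12a to 0.39 for Hsd11b2. The interval of Sgk1 was -1.70 to 0.19 and that of Scnn1g -1.45 to 0.83. Both tumour comparisons share no samples, but each shares its normal colon or tumours with a DSS comparison, so the 4 comparisons are not independent.

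Cell type markers moved with the same comparisons. These are bulk samples, and fewer cells of a type and less RNA per cell cannot be told apart. In untreated tumours 3 of the 4 measured goblet cell markers fell (mean log ratio of the list -3.32 to -1.34 in tumours and -0.34 to 0.26 in normal colon). The simple epithelium list had 3 of 10 genes lower and a median change of -0.35. Its mean was -0.69 to 0.51 in untreated tumours and 0.24 to 0.59 in untreated normal colon. In the same comparison 4 of 6 fibroblast and 3 of 8 leukocyte markers rose, and the smooth muscle list had 1 of 4 lower. Of the untreated tumours, those of rats 8 and 10 had the lowest simple epithelium means (-0.54 and -0.69) and the highest leukocyte means (0.87 and 0.86). These tumours, both of lot 2, also held the lowest untreated tumour values of each of the 7 genes apart from Hsd11b2. Saturation of the Hsd11b2 reference channel on lot 2 arrays can overstate its values there. In DSS normal colon all 7 measured of 12 listed squamous epithelium markers rose, with a list mean of 2.44 to 4.27 against 0.01 to 1.69 in untreated normal colon and -0.04 to 0.29 in all tumours. In the same comparison 1 of 2 urothelium, 2 of 8 leukocyte and 1 of 6 fibroblast markers rose. In DSS rats 6 of the 7 squamous and 3 of the 4 goblet cell markers were lower in tumours than in normal colon. Tp63, a defining gene of squamous basal cells, was well above background on 6 of 6 arrays of DSS normal colon, 3 of 7 of untreated normal colon, 0 of 5 of untreated tumours and 1 of 6 of DSS tumours. Markers were measured if well above background on at least 5 of 24 arrays, and Tp63 passed only through its arrays of DSS normal colon. Ivl, above background on 2 arrays of untreated and 0 of DSS normal colon, was not kept. The squamous counts and means therefore depend in part on this filter. Rat 8 had the highest squamous mean of the untreated normal colons (1.69) and also the lowest Scnn1a, Nr3c2, Sgk1 and Atp12a of that group, while its Scnn1b, Scnn1g and Hsd11b2 (0.34, 1.54 and 0.61) were not the lowest. Without rat 8 the DSS change in normal colon was -1.12 (adjusted p = 0.0285) for Hsd11b2 and -1.11 (adjusted p = 0.0151) for Nr3c2. The part of these cell types in the changes of the 7 genes was not tested.

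Genes that act on or beside the channel did not all move with it. In untreated tumours, where 8.54% of all features rose and 9.41% fell, the list of ENaC proteolysis and turnover had 1 of 21 measured genes higher and 4 lower, with a median change of -0.06. Usp2, a deubiquitinase that aldosterone induces, fell by 0.99, Cnksr3, a scaffold of the ENaC regulatory complex, fell by 0.54, and Sgk3, a relative of Sgk1, rose by 0.97. Of 19 measured corticosteroid receptor partners, steroid enzymes and responsive genes, 4 rose and 4 fell. Ndrg2, a substrate of Sgk1, fell by 2.33 (5.03-fold), while the receptor chaperone gene Hsp90aa1 rose by 1.48. The WNK and SPAK kinase list had 1 of 5 lower, Wnk4, which fell by 1.02. Neither of the acid-sensing channel relatives that were measured, Asic1 and Asic4, was called, and the renin-angiotensin list had 0 of 6 called. The gastric pump genes Atp4a and Atp4b were on the array and not kept by the filter on dim probes.

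The sodium pump, which moves out of the cell the sodium that ENaC lets in, its FXYD partners and the potassium channels were mixed, with 4 of 20 measured genes higher and 5 lower in untreated tumours. Fxyd5, a regulator of the pump that is also known as dysadherin, rose by 2.84 (7.14-fold, adjusted p = 4.97e-06), and the potassium channels Kcnk5 and Kcnn4 fell by 2.03 and 1.72. Electroneutral salt absorption, the other route of sodium uptake in the colon, had 4 of 11 lower and 1 higher: Slc26a3, the chloride-bicarbonate exchanger, fell by 4.54 (23.2-fold), the transporter Slc16a1 by 1.42, and the sodium-proton exchanger Slc9a3 rose by 1.48. Chloride secretion had 5 of 8 lower, among them Best2 (by 1.09), Cftr (by 0.58) and Adcy6 (by 0.89). The median change was -0.59 for electroneutral absorption and -0.67 for chloride secretion. None of these named genes that were called turned direction under another scaling of the arrays, but median centring ended the calls of Usp2, Cnksr3, Sgk3, Hsp90aa1, Wnk4, Kcnn4, Slc16a1, Slc9a3 and Adcy6. With the Agilent processed signals in place of the background-corrected ones, the changes were larger by over 1.5 times on the log2 scale for Best2 (-2.43), Cftr (-1.56), Usp2 (-1.92), Cnksr3 (-0.91) and Sgk3 (1.58).

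**Figure D4:**
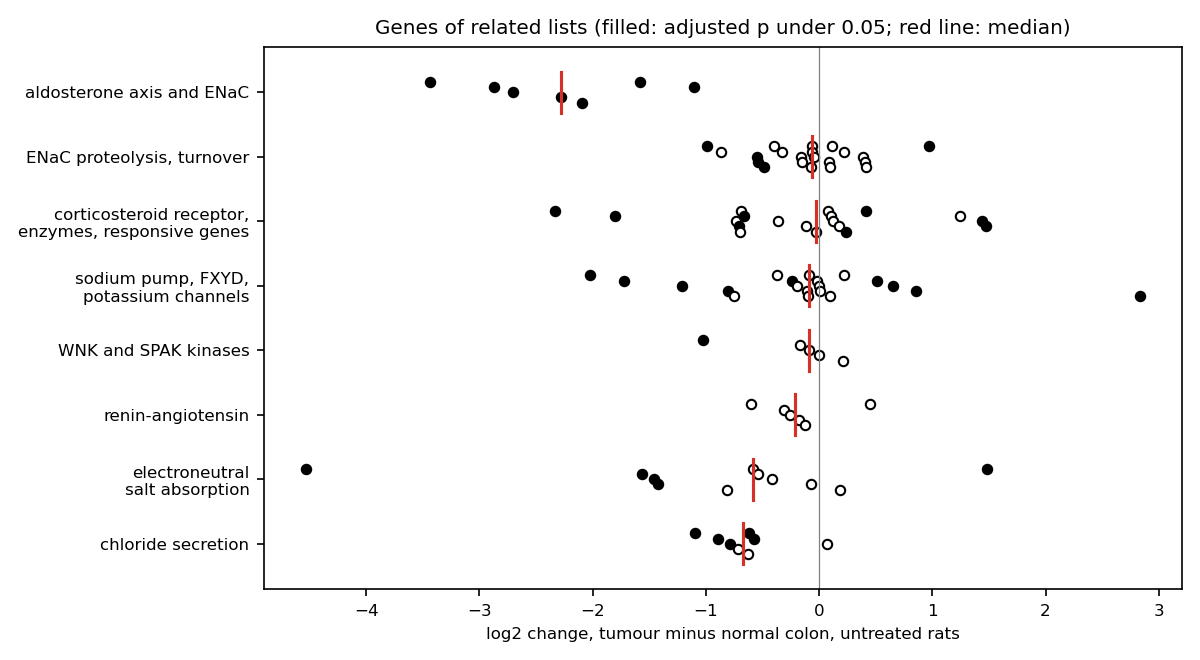
Log2 change in tumours of untreated rats against normal colon (horizontal axis) of the 7 genes and of 7 related lists, 1 point per measured gene. Filled points had an adjusted p under 0.05 and red lines are medians: the 7 genes lie between -3.44 and -1.10, and the other lists spread around medians of -0.67 to -0.03.

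In DSS normal colon, where 3.87% of all features rose and 3.32% fell, few of the related genes were called. Of the sodium pump and potassium channel list, 2 of 20 rose and 2 fell: the pump subunit gene Atp1b3 rose by 1.42 (2.68-fold, adjusted p = 8.24e-05), and Kcnk5 and Fxyd6 fell by 0.99 and 0.62. Of the corticosteroid list 2 of 19 fell, Edn1, which encodes endothelin-1 (by 1.24), and the transcription factor gene Klf9 (by 0.77). The remaining 17 genes of that list, which include other corticosteroid-responsive genes, were not called, and the median change of the list was 0.04. The glucocorticoid receptor gene Nr3c1 was at -0.57 (adjusted p = 0.0559). In the renin-angiotensin list 2 of 6 fell, the angiotensin-cleaving peptidase gene Enpep (by 1.38) and the receptor gene Agtr1a (by 0.73). Without the 3 arrays of raised signal the calls of Edn1 (-0.89, adjusted p = 0.14), Klf9 (-0.81, adjusted p = 0.0705), Enpep (-0.99, adjusted p = 0.174), Agtr1a (-0.63, adjusted p = 0.154) and Fxyd6 (-0.56, adjusted p = 0.0947) ended. The lists of ENaC turnover, WNK kinases, acid-sensing channels, electroneutral absorption and chloride secretion had 0 called genes. With median centring none of Atp1b3, Kcnk5, Fxyd6, Edn1, Klf9, Enpep and Agtr1a passed the threshold (adjusted p from 0.273 to 0.56), and with the Agilent processed signals the call of Fxyd6 ended (-0.57, adjusted p = 0.0584) and Agtr1a was at -1.24.

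The 7 genes varied together across the 20 samples, apart from Hsd11b2. Pearson correlations were 0.74 to 0.96 among the other 6 genes and 0.28 to 0.65 between Hsd11b2 and each of them. These are descriptions over samples that share the 4 groups, the lots and the reference pool. On every array of lot 2 the reference channel of the Hsd11b2 probe was saturated. The part of that saturation in the lower correlations of Hsd11b2 was not tested. Scnn1b was nearest to Atp12a (r = 0.962) and Scnn1g to Scnn1b (r = 0.941). Over all measured genes with a symbol, the 3 nearest to each gene were Selenbp1, Atp12a and Prss32 for Scnn1b, Scnn1b, Cyp4f5 and Gba2 for Scnn1g, and Ahcyl2, Slc9a2 and Mep1a for Scnn1a. For Nr3c2 they were Fut4 (r = 0.978), Klk1 and Pgap1, for Sgk1 Cyp2d5 (r = 0.979), Prss32 and Fth1, and for Atp12a Scnn1b, Adora2b and Slc26a3. For Hsd11b2 they were Mtarc2 (r = 0.945), Smyd3 and Slc37a4. For Hsd11b2, as for Scnn1a and Nr3c2, none of the 3 was among the 3 nearest to another of the 7 genes.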

How the data were processed

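RNA of 20 samples, from 2 tissues of 10 rats, was measured on 24 2-colour arrays, since 4 samples had a second array. Per the file headers, the authors read the arrays with Agilent Feature Extraction 9.1.3.1. The deposited signal and background of each spot are intensity values, and the deposited log ratio is log10 of Cy5 over Cy3. The submitters' processing notes also name Partek, without saying for what. Per the labels, samples carried Cy3 and the wild-type colon pool Cy5, with no dye swap, so a gene-specific dye effect is part of every ratio and cancels only between groups. The genome build of the probes is not given in the sources used here.

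Background was corrected by normexp (offset 50) on mean signals, followed by loess within arrays, with limma 3.58.1 (R 4.3.3, statmod 1.5.0). Spots of a probe were averaged, then the repeat arrays of a sample. Features were probes well above background on at least 5 of 24 arrays, with the brightest probe per symbol. This kept 26843 features, 12617 of them with a symbol, and 400 values (0.0745%) were missing. limma fitted a mean for each of the 4 groups (16 residual and 2.24 prior degrees of freedom), with two-sided tests and Benjamini-Hochberg adjustment over all features at 0.05. Errors are standard errors unless marked SD. The number of arrays limits the precision. The script was tested on simulated data. The members, lists and the exclusion of 3 arrays were chosen with earlier results of these data known. The genes named are the 7 members, the 3 genes with the smallest p of each related list in untreated tumours and in DSS normal colon, and the 3 genes most correlated with each member. A gene that this rule would name is not reported here. A name is current by RefSeq accession, symbol or older name; Sgk1 is Sgk in the files. Alternatives were other background, scaling, filter and probe choices, lot, scan day, slide and rat as blocks, and each rat left out. Lots and slides come from slide identifiers, scan days from headers. The rat numbers are animals by the labels, and the deviations of both tissues of a rat from their group means had correlations of 0.077 to 0.568 over features.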

Additional observations from a re-analysis of the deposited data

Results flagged for a closer look

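Hsd11b2 differed in its DSS effect between the tissues. The DSS change in tumours minus that in normal colon was 1.59 on the log2 scale (adjusted p = 0.0246, limma), because normal colon of all 5 DSS rats lay below normal colon of all 5 untreated rats while the tumours of the 2 treatments overlapped. By Dixon's test no rat passed the critical value of 0.71 in any of the 28 combinations of gene and group, of which chance alone would mark about 1 in 20. The nearest was rat 4 for Hsd11b2 in untreated tumours, with a Q of 0.706. With 5 rats per group this test marks only large departures.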

How the results depend on the processing

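In untreated rats the tumour changes of all 7 genes kept their direction under all 28 alternatives, and 5 to 7 genes passed the threshold. Some alternatives, such as other filters and lot or rat as a block, leave the estimated change of a gene as it was. Those could alter a call and could not turn a direction. In DSS rats 0 of the 7 genes passed with median centring and 1 within lot 2. For DSS in normal colon the count of 2 became 1 with an offset of 10, with no filter, with every probe as a feature and without the 3 arrays of raised signal, 0 with median centring and within lot 2, and 4 with scan day or slide as a block; without single rats it was 1 to 2. For the DSS effect in tumours minus that in normal colon the count of 1 became 0 within lot 1, within lot 2 and without the 3 arrays, and was 0 to 1 without single rats. The rat as a fixed replicate block changed 1 call among the genes, Scnn1a in DSS rats (-0.90, adjusted p = 0.00235), and the count of features there from 2022 to 3311; a random block left the count for DSS in normal colon at 2.

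Median centring, in place of loess, put the median of all features at 0.25 in DSS tumours against normal colon, at 0.22 for DSS in tumours and at 0.38 for the difference of DSS effects, against 0.02, 0.01 and 0.02 with loess. Changes that turned direction were all outside the threshold. With median centring, DSS in tumours became 0.26 for Nr3c2, 0.18 for Scnn1a and 0.20 for Scnn1b, and the difference of DSS effects 0.52 for Atp12a and 0.45 for Scnn1g. Within lot 2, DSS in tumours was 0.61 for Nr3c2, 0.09 for Scnn1a, 0.55 for Scnn1b, 1.14 for Scnn1g and 0.12 for Sgk1, DSS in normal colon was 0.63 for Scnn1g, and the difference of DSS effects was 0.40 for Atp12a and 0.50 for Scnn1g. Within lot 1 that difference was 0 for Scnn1a, -0.03 for Scnn1b and -0.06 for Sgk1. Hsd11b2 in DSS tumours against normal colon was 0 with an offset of 10, -0.13 within lot 2, -0.08 without the 3 arrays and -0.05 to 0.09 without single rats. Scnn1g for DSS in normal colon was 0.06 without the 3 arrays and -0.61 to 0.14 without single rats. The difference of DSS effects ran from -0.79 to 0.09 for Atp12a and from -0.36 to 0.44 for Scnn1g without single rats. The cause was not tested. Across settings the features called ranged from 917 to 6750 (untreated tumours, 4819 in the main setting), 111 to 4131 (DSS tumours, 2022), 2 to 6171 (DSS in normal colon, 1930), 0 to 52 (DSS in tumours, 0) and 3 to 1679 (difference of DSS effects, 670).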
